A study of Mus musculus with 6 samples.

Results

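Replication-dependent histone genes are the clustered genes that supply linker histone H1 and the core histones H2A, H2B, H3 and H4 for newly made DNA. They were taken here as every protein-coding gene of the mouse GENCODE annotation whose symbol begins Hist1h, Hist2h, Hist3h or Hist4h, which gave 65 of the 49671 genes in the deposited gene table. The annotation lists 67 such genes, and Hist1h2bh and Hist1h2bm were not analysed here. The 65 genes comprised 6 of class H1, 18 of H2A, 16 of H2B, 12 of H3 and 13 of H4. On GRCm38, 52 lay on chromosome 13, 10 on chromosome 3, 2 on chromosome 11 and 1 on chromosome 6.

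RNA was sequenced from primary cortical neurons of C57BL/6 mouse embryos (embryonic day 14), plated in medium with horse serum and then kept in feeding medium with B-27 supplement. The groups were wild-type neurons after 3 days in vitro (DIV3_WT), Ptbp2 knockout neurons after 1 day in vitro (DIV1_KO) and wild-type neurons after 1 day in vitro (DIV1_WT), with 2 libraries each. DIV3_WT against DIV1_WT follows wild-type neurons into the period of axon formation, and DIV1_KO against DIV1_WT tests loss of Ptbp2, which encodes a splicing regulator of developing neurons. The labels give the knockout only as the genotype Ptbp2-/- and do not describe the allele. The 2 libraries of a group are described as biological replicates with no word on whether they came from separate litters, so a p-value here reflects the spread of these cultures alone. Library totals lay between 39104879 and 75522198 expected counts.

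In a dividing cell these genes are transcribed in S phase, and their mRNAs, unlike all other animal mRNAs, normally end in a conserved stem-loop instead of a poly(A) tail. Stem-loop binding protein and the U7 small nuclear ribonucleoprotein make that end, and the mRNAs are degraded when DNA synthesis stops. A few of the genes also produce longer polyadenylated transcripts that end downstream of the stem-loop, which are known from differentiated, non-dividing cells. Neurons are post-mitotic, so in a cortical culture the cells that replicate DNA are mainly progenitors and glia.

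The stem-loops are shown because the annotated position of this element, near the transcript's end or far inside it, was used in grouping the genes described next. Each line gives 30 bases of the sense strand, with the 16-base stem-loop in capitals, read from the GENCODE transcript of the gene on GRCm38.
Hist1h2bk (chr13:22036293-22036322, plus strand): caccaaaGGCTCTTTTAAGAGCCactaaac
Hist1h3a (chr13:23761883-23761912, minus strand): aaccaaaGGCTCTTTTCAGAGCCacacacg
Hist1h4b (chr13:23757359-23757388, plus strand): tacaaaaGGTCCTTTTCAGGACCactcact
Hist1h4i (chr13:22040959-22040988, minus strand): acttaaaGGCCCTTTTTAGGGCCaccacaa
Hist1h1c (chr13:23739505-23739534, plus strand): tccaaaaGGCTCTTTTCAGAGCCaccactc
Hist3h2a (chr11:58955165-58955194, plus strand): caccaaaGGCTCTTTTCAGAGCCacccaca
Hist3h2ba (chr11:58949342-58949371, plus strand): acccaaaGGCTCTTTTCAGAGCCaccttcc

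The element lies after the stop codon in these mRNAs. The annotated transcript ended 30 bases after the element in Hist1h2bk, 37 bases after it in Hist1h3a and 28 bases after it in Hist1h4b. It ran on for 330 bases in Hist1h4i, 840 in Hist1h1c, 169 in Hist3h2ba and 1643 in Hist3h2a. These last genes are among the most abundant of the family. Not every gene with the element far inside was abundant. Hist1h1d, with 4884 bases after it, and Hist4h4, with 2445, had at most 23 and 28 counts in any library.

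Across the family, 44 of the 65 genes carried the element in an annotated transcript. A match within the last 100 bases occurs in 0.0240% of the 141767 annotated transcripts, and a match anywhere in 0.147%. The form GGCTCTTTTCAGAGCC was found in 23 genes of classes H1, H2A, H2B and H3, and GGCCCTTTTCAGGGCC in 7 genes, all of class H4. A poly(A) signal (AATAAA or ATTAAA, sense strand) stood in the last 50 bases of an annotated transcript in 17 genes, against 33.7% of all annotated transcripts, and 14 genes had both elements. The genes thus fell into 4 kinds of annotated 3′ end. A poly(A) signal ended 17 genes, a stem-loop within the last 100 bases and no poly(A) signal ended 20, a stem-loop farther inside with no such signal was found in 10, and 18 had neither. A missing element says only that these letters are not in the annotated transcript.

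Most of the family's counts in these libraries came from 6 genes. Levels are given as CPM, the deposited expected counts divided by the library's TMM-scaled total. Summed over all 65 genes the level was 225 and 228 CPM in DIV3_WT, 279 and 236 CPM in DIV1_KO, and 263 and 247 CPM in DIV1_WT. The genes Hist3h2a, Hist3h2ba, Hist2h2be, Hist1h2bc, Hist1h4i and Hist1h1c held between 94.7% and 96.2% of that sum in every library. Per kilobase of annotated transcript, Hist3h2ba (H2B) averaged 99.0 CPM and Hist3h2a (H2A) 59.2 CPM over the 6 libraries. Hist1h4i (H4) followed with 12.8 CPM per kilobase, Hist1h2bc (H2B) with 8.60, Hist2h2be (H2B) with 7.39 and Hist1h1c (H1) with 5.86. The replication-independent variant H2afz, which is expressed throughout the cell cycle, averaged 563 CPM per kilobase.

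**Figure D1:**
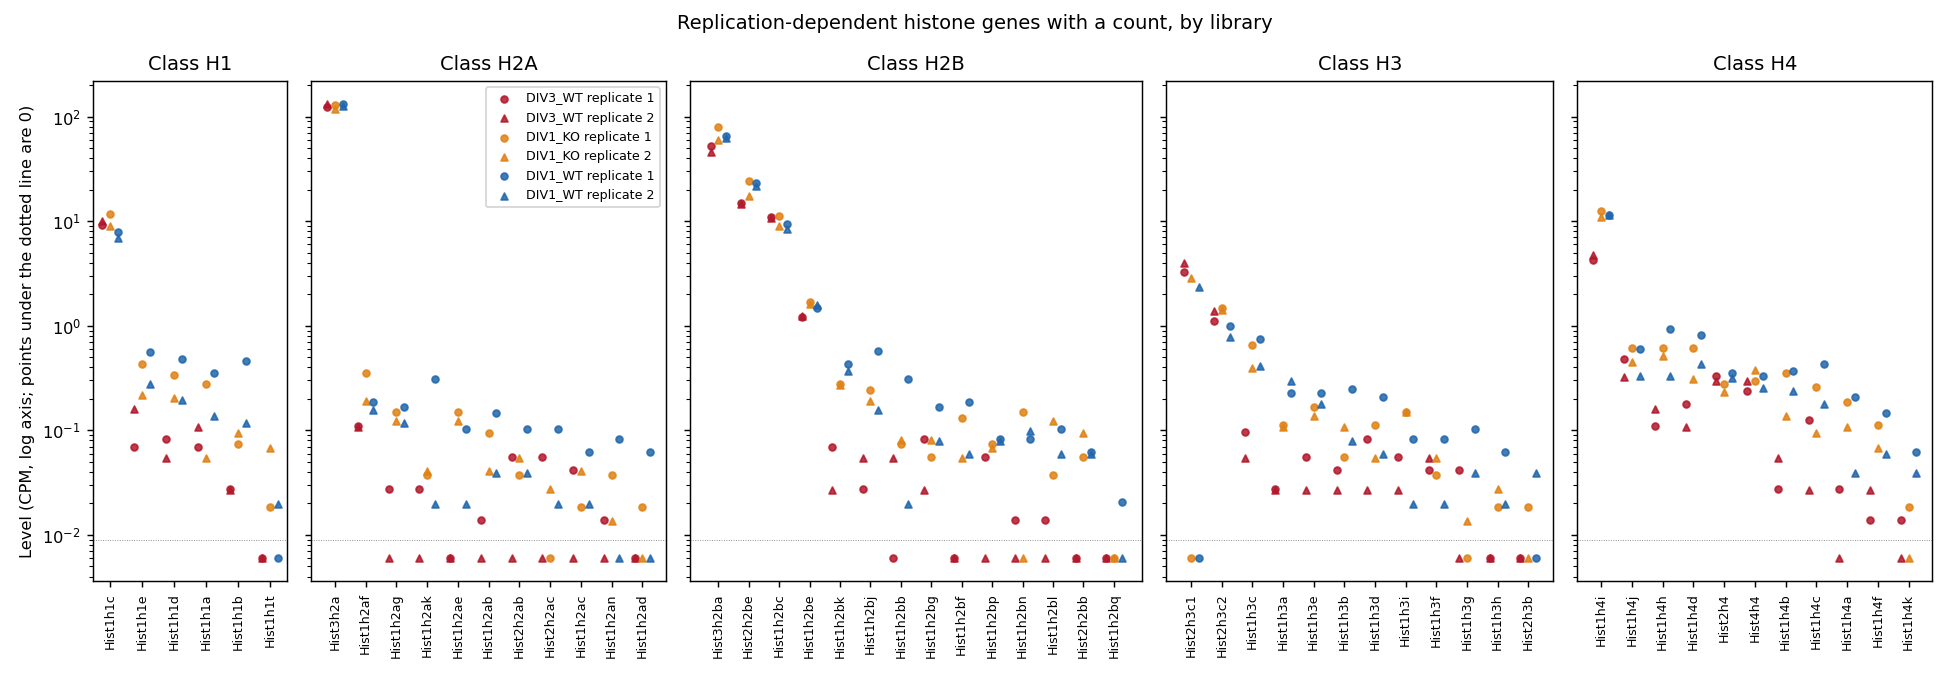
Level of each of the 54 histone genes with a count, in CPM on a log axis, by histone class and ordered by mean level. Circles are replicate 1 and triangles replicate 2 of DIV3_WT, DIV1_KO and DIV1_WT, and points under the dotted line are 0. In each class 1 to 4 genes reach 1 CPM in some library, and the others lie below it in all 6.

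Genes whose annotated transcript ends at the stem-loop were low in all libraries. The 20 such genes together summed to 0.444 and 0.323 CPM in DIV3_WT, 2.28 and 1.62 CPM in DIV1_KO, and 3.83 and 1.90 CPM in DIV1_WT. Per kilobase, their sum was 0.856 and 0.663 CPM in DIV3_WT, 4.60 and 3.20 CPM in DIV1_KO, and 7.65 and 3.80 CPM in DIV1_WT. A low level was not particular to these genes. The 10 genes with a stem-loop farther inside summed to 1.87 and 1.86 CPM in DIV3_WT. Their sums were 3.51 and 2.60 CPM in DIV1_KO and 4.02 and 2.22 CPM in DIV1_WT. Some genes with a poly(A) signal, such as Hist2h4 and Hist4h4, were low as well. For scale, the proliferation gene Mki67 alone stood at 18.6 and 18.5 CPM per kilobase in DIV3_WT, 40.8 and 39.5 in DIV1_KO, and 39.9 and 38.1 in DIV1_WT. The labels name a total RNA library kit, and other RNAs made without a poly(A) tail were also low: Rn7sk, the 7SK small nuclear RNA, had 6.11 and 4.66 CPM in DIV3_WT, 24.6 and 12.01 CPM in DIV1_KO, and 26.1 and 5.18 CPM in DIV1_WT. Rn7sk and the RNAs Rmrp and Rpph1 were chosen as a comparison after the values were seen. How completely these libraries captured RNA without a poly(A) tail was not tested, so a low level of a stem-loop-ending gene is a level in these libraries. In the 20 stem-loop-ending genes, 0% to 61.4% of the 50-base windows were found in no other gene's transcripts. In the 6 abundant genes the share was 68.5% to 100%. The part of shared reads in these low levels was not tested.

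Among the 65 genes, 11 were listed at 0 in all 6 libraries: Hist1h2aa, Hist1h2ah, Hist1h2ai, Hist1h2ao, Hist1h2ap, Hist2h2aa1, Hist2h2aa2, Hist1h2ba, Hist1h2br, Hist1h4m and Hist1h4n. A count of 0 allows up to 3 counts, which is 0.0397 to 0.0767 CPM (before TMM scaling) depending on the library. In 9 of them only 0% to 14.4% of the 50-base windows were found in no other gene's transcripts. Reads of such copies may have been assigned elsewhere or left out of the counts. Hist1h2aa and Hist1h2ba, known as testis histone genes, are the exceptions, with 97.7% and 61.8% of windows unique. Hist1h2br had 5 and 3 counts in DIV3_WT, 8 and 8 in DIV1_KO, and 14 and 7 in DIV1_WT in the deposited transcript table, so its 0 in the gene table is a difference between the deposited tables.

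**Figure D2:**
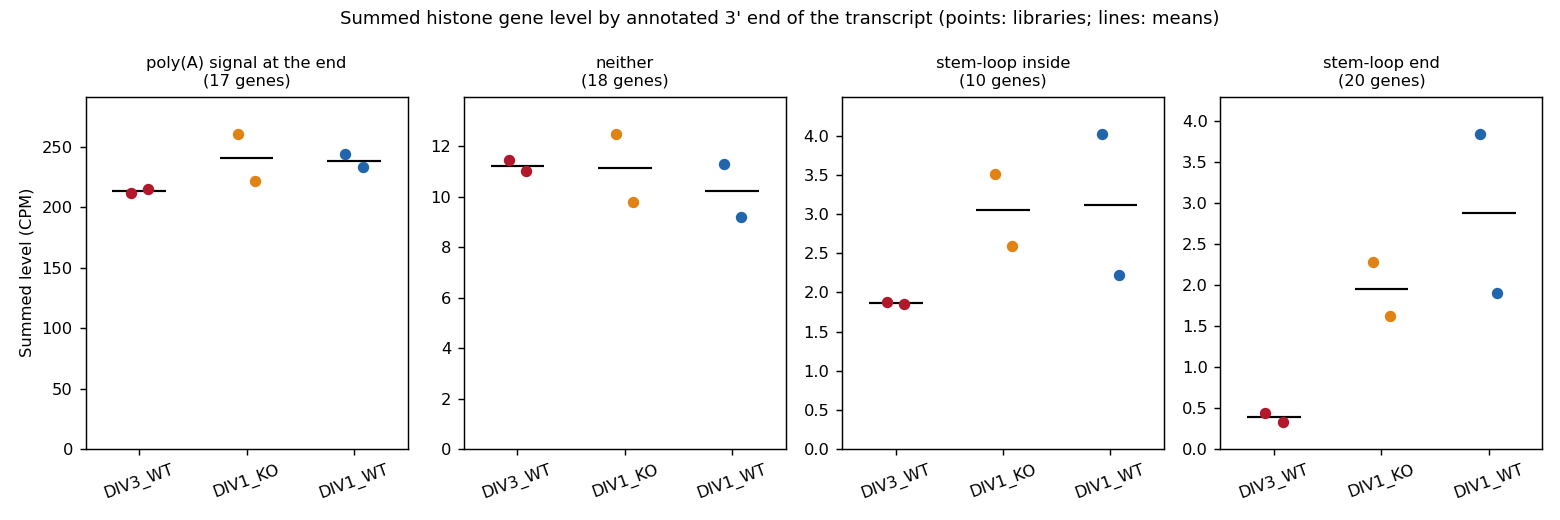
Summed level in CPM of the histone genes by annotated 3′ end, with 1 point per library and a line at each group's mean, in panels whose linear axes start at 0 and differ in scale. The 20 stem-loop-ending genes lie between 0.323 and 3.83 CPM, and the 10 with a stem-loop farther inside between 1.86 and 4.02 CPM. The 17 genes ending in a poly(A) signal lie between 212 and 260 CPM. DIV3_WT lies below DIV1_WT in every panel except the one for neither element, where the 2 groups overlap through the gene Hist1h2bc.

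The 18 genes with neither element are mostly Hist1h2bc by level. Without Hist1h2bc, the other 17 summed to 0.402 and 0.269 CPM in DIV3_WT, 1.27 and 0.842 CPM in DIV1_KO, and 1.95 and 0.805 CPM in DIV1_WT. DIV3_WT then lay below DIV1_WT without overlap, with a ratio of 0.244, against 1.10 with all 18 genes. Hist1h2bc was left out with its level known, and the other 17 rest on 29 and 10 counts in DIV3_WT, so this is a description only.

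Between DIV1 and DIV3 in wild-type neurons, several low stem-loop genes and the H4 gene Hist1h4i fell, while the abundant H2A gene Hist3h2a and the H1 gene Hist1h1c did not pass the test. Of the 24 members that passed the filter on low counts, 11 were lower in DIV3_WT at an adjusted p under 0.05 and 0 were higher (edgeR quasi-likelihood test, Benjamini-Hochberg adjustment over 16847 genes). Among all genes tested, 16.4% were called lower and 19.8% higher. The DESeq2 Wald test called 9 members lower and 0 higher, and 12 members had an unadjusted p under 0.05 by each tool. Of the 24, 12 had no DIV3_WT library over the filter's cutoff and so entered through the DIV1 libraries, 9 of the 11 called members among them, so the count of calls among tested members is no measure of the family's share. The 9 are Hist1h2bk, Hist1h2bj, Hist1h3a, Hist1h3c, Hist1h4b, Hist1h4d, Hist1h4h, Hist1h1d and Hist1h1e, and their adjusted p-values given below carry this limit. Among the other 12, 2 were called, Hist1h4i and Hist2h2be.

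A count over libraries does not depend on the filter. Of the 54 members with any count, 31 (57.4%) had both DIV3_WT libraries below both DIV1_WT libraries and 4 (7.41%) had both above. Over all 26497 genes with a count, these shares were 29.5% and 28.6%. Among the 45 members with a mean under 0.5 CPM, a limit set after the values were seen, 27 (60.0%) were lower without overlap and 0 were higher, against 17.2% and 15.9% of the 11965 genes that low. Both backgrounds take in genes with any count and were not matched to the members for number of counts. In bulk RNA, fewer cells of a type and less RNA per cell cannot be told apart.

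Class H4 had the lowest ratio of DIV3_WT to DIV1_WT among the 5 classes (0.403), an order that rests on the abundant genes. With the 10 most abundant members left out, a limit set after the values were seen, H4 had the highest ratio of the 5 (0.368, against 0.259 for H2A, 0.232 for H1, 0.218 for H3 and 0.141 for H2B). These ratios rest on 4 to 77 counts per class in a DIV3_WT library. The DIV1_WT libraries also lay apart, as for H2A with 1.33 and 0.432 CPM, so the order is a description only. Summed over the 13 H4 genes, the level was 5.82 and 6.06 CPM in DIV3_WT, 15.96 and 13.3 CPM in DIV1_KO, and 15.7 and 13.8 CPM in DIV1_WT. Both DIV3_WT libraries lay below all 4 DIV1 libraries, and the log2 ratio of the DIV3_WT mean to the DIV1_WT mean was −1.31. Most of this was Hist1h4i (ENSMUSG00000060639, chr13:22040636-22041362, minus strand), a single-transcript gene with both a stem-loop and a poly(A) signal. Hist1h4i had 4.27 and 4.76 CPM in DIV3_WT, 12.6 and 11.0 CPM in DIV1_KO, and 11.5 and 11.5 CPM in DIV1_WT. Its log2 fold change in DIV3_WT against DIV1_WT was −1.35 ± 0.13 (SE), with an adjusted p of 0.000442 (edgeR), and its largest adjusted p over 15 alternatives was 0.00860.

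The other H4 genes were low. Hist1h4h, also annotated with both elements, had 0.111 and 0.162 CPM in DIV3_WT, 0.616 and 0.516 CPM in DIV1_KO, and 0.932 and 0.334 CPM in DIV1_WT, a log2 fold change of −2.26 ± 0.59 at DIV3. The DIV3_WT libraries lay below every DIV1 library, though the DIV1_WT libraries differed widely from each other. Hist1h4b fell by 2.96 on the log2 scale, with 2 and 2 counts in DIV3_WT, 19 and 10 in DIV1_KO, and 18 and 12 in DIV1_WT. The Hist1h4b call was lost when any 1 of the 4 libraries compared was left out (largest adjusted p 0.174), and the Hist1h4h call in 3 of these 4 leave-outs (0.161). Hist1h4d fell by 2.0 on the log2 scale, and it was named in addition to the rule after its call was seen. Its call too was lost in 3 of the 4 leave-outs (largest adjusted p 0.159). By contrast Hist1h4j, with 0.485 and 0.323 CPM in DIV3_WT, 0.616 and 0.448 CPM in DIV1_KO, and 0.601 and 0.334 CPM in DIV1_WT, gave a log2 fold change of −0.15 ± 0.40 and an adjusted p of 0.793.

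Class H2B divided by gene. Hist1h2bk (ENSMUSG00000062727, chr13:22035870-22036345, plus strand), which ends at its stem-loop, had 5 and 1 counts in DIV3_WT, 15 and 20 in DIV1_KO, and 21 and 19 in DIV1_WT. As CPM this was 0.0693 and 0.0269 in DIV3_WT, 0.280 and 0.272 in DIV1_KO, and 0.435 and 0.373 in DIV1_WT. The groups DIV3_WT and DIV1_WT did not overlap, and Hist1h2bk fell by 2.85 ± 0.46 on the log2 scale with an adjusted p of 0.00380. It entered the test through the DIV1 libraries, with no DIV3_WT library over the filter's cutoff. Hist1h2bk and Hist1h4i were the only members called in all 15 alternatives, the largest adjusted p of Hist1h2bk being 0.0354. Only 25.8% of the 50-base windows of Hist1h2bk are unique, so some of its reads may belong to close copies. Hist1h2bj fell by 3.23 ± 0.85, with 2 and 2 counts in DIV3_WT, 13 and 14 in DIV1_KO, and 28 and 8 in DIV1_WT, a call lost in 3 of the 4 leave-outs (largest adjusted p 0.177). Over the filter's cutoff it had 2 DIV1_KO libraries but only 1 DIV1_WT library. It was not tested when only the 4 libraries compared were fitted.

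The abundant H2B genes moved less. Hist2h2be, whose long transcript ends in a poly(A) signal, had 15.1 and 14.8 CPM in DIV3_WT, 24.01 and 17.5 CPM in DIV1_KO, and 23.2 and 21.6 CPM in DIV1_WT. It fell by 0.59 ± 0.16 on the log2 scale with an adjusted p of 0.0262, a call that was lost when any 1 of the 4 libraries compared was left out. Hist3h2ba had 52.7 and 46.2 CPM in DIV3_WT, 78.8 and 59.4 CPM in DIV1_KO, and 65.9 and 61.9 CPM in DIV1_WT. The DIV3_WT libraries were the lowest of the 6, but the log2 fold change of −0.37 ± 0.14 did not pass (adjusted p = 0.0809). Hist3h2ba was called lower in 5 alternatives (only the 4 libraries compared, library totals, no filter, and without either DIV1_KO library), with adjusted p from 0.00339 to 0.0279. Hist1h2bc had 11.0 and 10.7 CPM in DIV3_WT, 11.2 and 8.95 CPM in DIV1_KO, and 9.34 and 8.38 CPM in DIV1_WT, a log2 fold change of 0.30 ± 0.14 (adjusted p = 0.144).

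In class H2A nearly all of the level came from 1 gene. Hist3h2a (ENSMUSG00000078851, chr11:58954685-58956830, plus strand) had 125 and 133 CPM in DIV3_WT, 129 and 118 CPM in DIV1_KO, and 131 and 126 CPM in DIV1_WT. All 3 groups overlapped, and its log2 fold change at DIV3 was −0.00033 ± 0.079 (adjusted p = 0.998). The 17 other H2A genes together held 0.347 and 0.108 CPM in DIV3_WT, 0.896 and 0.652 CPM in DIV1_KO, and 1.33 and 0.432 CPM in DIV1_WT. Hist1h2af, the only one of them that passed the filter, gave a log2 fold change of −0.63 ± 0.53 (adjusted p = 0.388).

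In class H1, Hist1h1d and Hist1h1e fell and Hist1h1c did not pass. Hist1h1c, whose transcript runs 840 bases past its stem-loop to a poly(A) signal, had 9.20 and 10.1 CPM in DIV3_WT, 11.8 and 8.98 CPM in DIV1_KO, and 7.89 and 6.97 CPM in DIV1_WT. Both DIV3_WT libraries lay above both DIV1_WT libraries, but the log2 fold change of 0.37 ± 0.16 did not pass (adjusted p = 0.114). Hist1h1d fell by 2.17 ± 0.64 on the log2 scale with an adjusted p of 0.0366, from counts of 6 and 2 in DIV3_WT, 18 and 15 in DIV1_KO, and 23 and 10 in DIV1_WT. Hist1h1e fell by 1.98 ± 0.64 with an adjusted p of 0.0489, from counts of 5 and 6 in DIV3_WT, 23 and 16 in DIV1_KO, and 27 and 14 in DIV1_WT. The Hist1h1e call was lost by DESeq2, with the replicate block and when any 1 of the 4 libraries compared was left out (largest adjusted p 0.298). The Hist1h1d call was lost by DESeq2 and in 3 of those 4 leave-outs (largest adjusted p 0.232). Hist1h1d was not tested when only the 4 libraries compared were fitted. Hist1h1t, known as a testis H1 gene, had at most 5 counts in any library.

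Class H3 was low throughout. The stem-loop-ending genes Hist1h3a and Hist1h3c fell. Hist1h3a had 2 and 1 counts in DIV3_WT, 6 and 8 in DIV1_KO, and 11 and 15 in DIV1_WT, a log2 fold change of −3.15 ± 0.54 (adjusted p = 0.00483). It passed the count filter through DIV1_WT alone, with no DIV3_WT or DIV1_KO library over the cutoff. Hist1h3c had 7 and 2 counts in DIV3_WT, 35 and 29 in DIV1_KO, and 36 and 21 in DIV1_WT, a log2 fold change of −2.79 ± 0.55 (adjusted p = 0.00799). Each of these calls was lost in 2 of the 4 leave-outs (largest adjusted p 0.0637 for Hist1h3a and 0.0548 for Hist1h3c). Hist2h3c2, whose transcript extends 377 bases past the stem-loop, had 1.11 and 1.37 CPM in DIV3_WT, 1.48 and 1.40 CPM in DIV1_KO, and 0.994 and 0.785 CPM in DIV1_WT. Its log2 fold change at DIV3 was 0.47 ± 0.23 (adjusted p = 0.161).

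The most abundant H3 member in the gene table, Hist2h3c1, could not be compared from that table. It had 237 and 149 expected counts in DIV3_WT, 0 and 209 in DIV1_KO, and 0 and 119 in DIV1_WT. In the deposited transcript table the libraries at 0 held 156 counts (DIV1_KO replicate 1) and 131 counts (DIV1_WT replicate 1), all on transcript Hist2h3c1-202, while the other 4 libraries held all their counts on Hist2h3c1-201. None of its 50-base windows is unique. Summed over both transcripts, Hist2h3c1 had 3.29 and 4.004 CPM in DIV3_WT, 2.91 and 2.85 CPM in DIV1_KO, and 2.72 and 2.34 CPM in DIV1_WT. From these sums, Hist2h3c1 gave a log2 fold change of 0.52 and an adjusted p of 0.0491, a fit added after the data were seen.

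**Figure D3:**
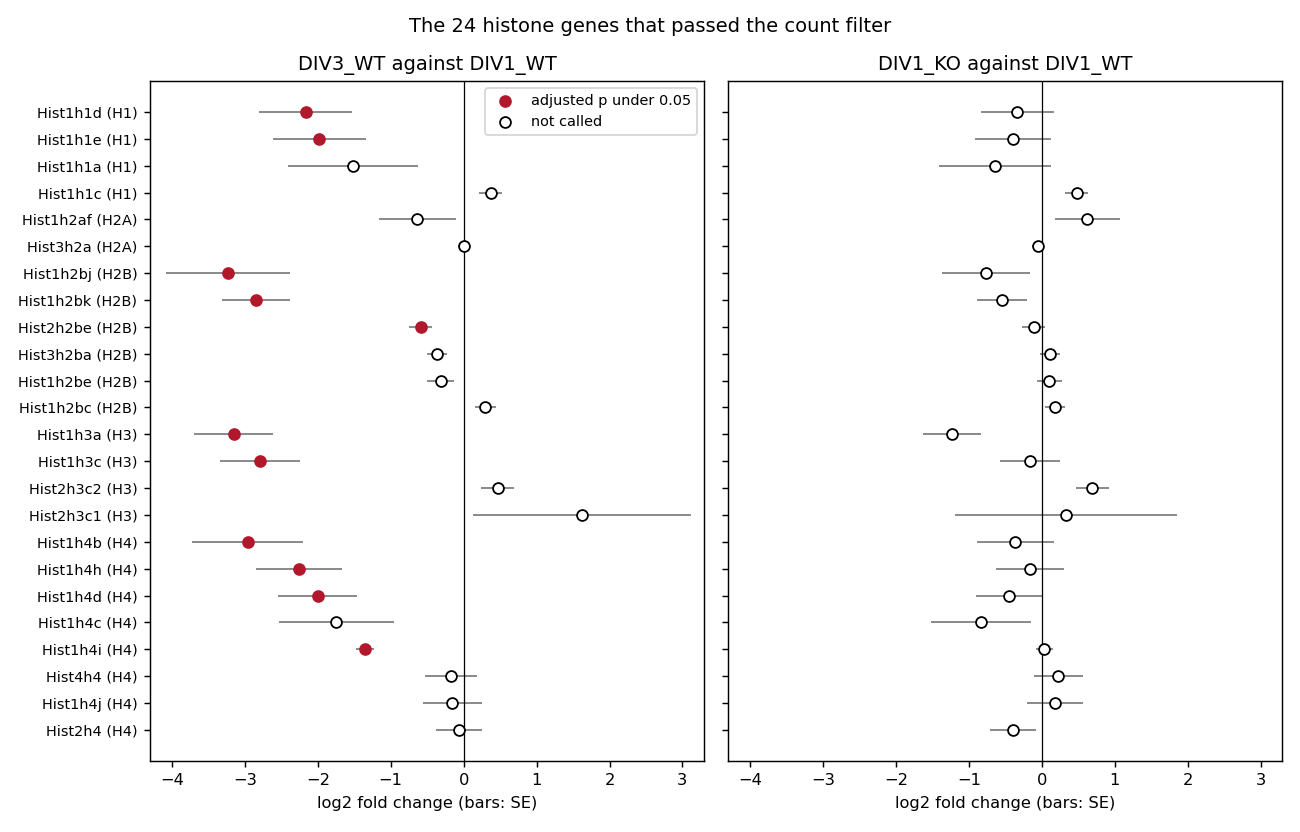
Log2 fold change with its standard error for the 24 histone genes that passed the count filter, in DIV3_WT against DIV1_WT (left) and DIV1_KO against DIV1_WT (right), ordered by class. Filled points have an adjusted p under 0.05: 11 members lie to the left of 0 in the first comparison and none is filled in the second.

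Other RNAs made without a poly(A) tail were also uneven between libraries. DIV1_WT replicate 1 was the highest of the 6 libraries for Rn7sk (26.1 CPM), for Rmrp, the RNase MRP RNA (5.16 CPM), and for Rpph1, the RNase P RNA (4.72 CPM). It was also the highest for the 20 stem-loop-ending genes (3.83 CPM). Rn7sk had 6.11 and 4.66 CPM in DIV3_WT, against 5.18 CPM in DIV1_WT replicate 2. Rmrp had 0.402 and 0.485 CPM in DIV3_WT, against 0.532 CPM in DIV1_WT replicate 2, and Rpph1 had 0.361 and 0.538 CPM in DIV3_WT, against 0.353 CPM in that library. The stem-loop-ending genes summed to 0.444 and 0.323 CPM in DIV3_WT, against 1.90 CPM in DIV1_WT replicate 2. None of Rn7sk, Rmrp and Rpph1 passed the test at DIV3 (adjusted p from 0.0628 to 0.135, edgeR), and their part in the histone result was not tested. Without DIV1_WT replicate 1, 3 members were called lower (Hist1h4i, Hist1h3a and Hist1h2bk). Leaving out DIV3_WT replicate 1 left 2 called, and leaving out DIV3_WT replicate 2 left 4.

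**Figure D4:**
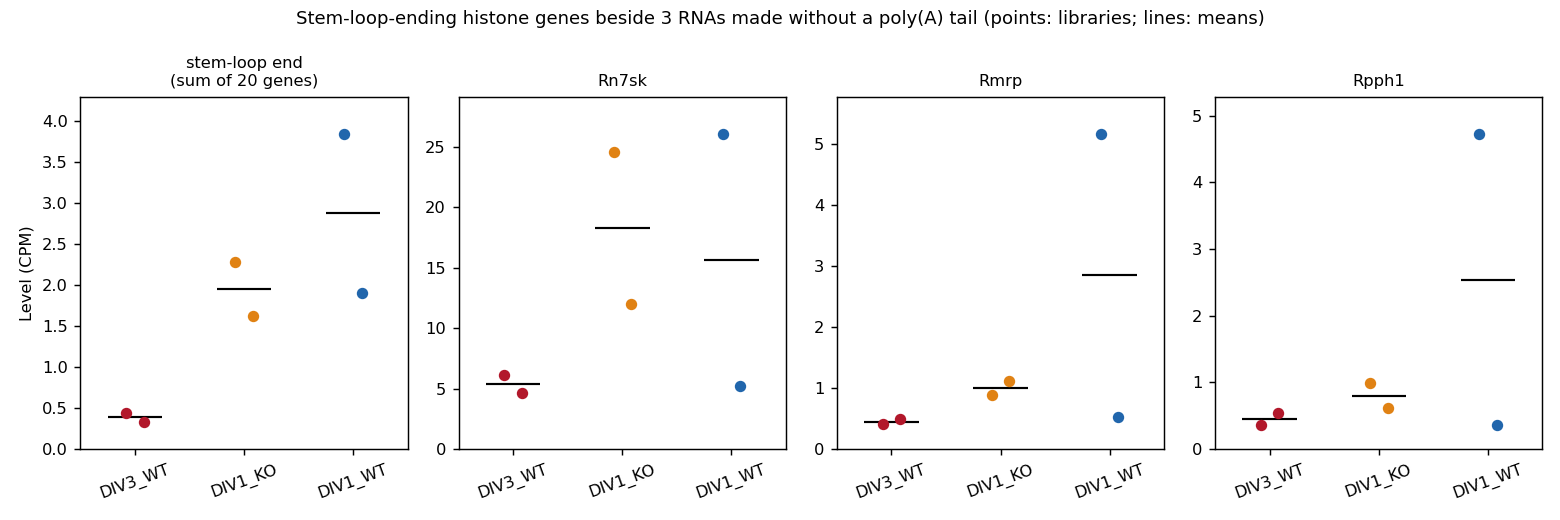
Summed level in CPM of the 20 stem-loop-ending histone genes beside Rn7sk, Rmrp and Rpph1, with 1 point per library and a line at each group's mean on linear axes that start at 0. DIV1_WT replicate 1 is the highest library in all 4 panels. DIV1_WT replicate 2 lies near DIV3_WT for Rn7sk, Rmrp and Rpph1 but at 1.90 CPM, above DIV3_WT, for the histone genes.

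Transcript length also moved with the comparison. The 1764 tested genes with a mean transcript length under 1000 bases had a median log2 fold change of −0.18 in DIV3_WT against DIV1_WT and of 0.25 in DIV1_KO against DIV1_WT. With the length trend removed, 11 members were called lower in DIV3_WT, and Hist1h1c (0.46, adjusted p = 0.0203) and Hist1h2bc (0.43, adjusted p = 0.0172) were called higher. Both were also called higher when only the 4 libraries compared were fitted.

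Genes that act with these histones are given by list. Of the 11 replication-independent histone variants, 8 were lower in DIV3_WT and 0 higher, with a median log2 fold change of −0.41 against −0.016 for all genes tested. Cenpa, the centromeric H3 variant, had 41.5 and 35.0 CPM in DIV3_WT, 103 and 90.1 CPM in DIV1_KO, and 96.1 and 90.1 CPM in DIV1_WT, and fell by 1.28 ± 0.11. H1f0, the H1 variant of non-dividing cells, fell by 0.72 ± 0.08, and H2afz by 0.54 ± 0.08. H3f3a, which encodes H3.3, had 647 and 684 CPM in DIV3_WT, 769 and 723 CPM in DIV1_KO, and 718 and 682 CPM in DIV1_WT, with a log2 fold change of −0.07 ± 0.09 (adjusted p = 0.568).

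Of the 16 genes for histone gene transcription and 3′ end processing, 1 was higher, 2 were lower and 13 did not pass. Slbp, which binds the stem-loop, had 58.5 and 56.5 CPM in DIV3_WT, 66.6 and 76.5 CPM in DIV1_KO, and 72.0 and 65.9 CPM in DIV1_WT, with a log2 fold change of −0.26 ± 0.09 (adjusted p = 0.0655). Lsm11, a protein of the U7 particle, rose by 0.75 ± 0.09. The endonuclease subunit gene Cpsf3 fell by 0.25 ± 0.07, and Cpsf4, a subunit of the cleavage and polyadenylation complex, fell by 0.40 ± 0.09. Slbp and Npat were named after their values were seen. Npat, the transcriptional coactivator of these genes, gave a log2 fold change of −0.11 ± 0.16.

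Of the 20 histone chaperone and import genes, 10 were lower in DIV3_WT and 0 higher. Chaf1a, a subunit of the chaperone that deposits H3 and H4 behind the replication fork, fell by 0.83 ± 0.08. Asf1b, the H3-H4 chaperone of proliferating cells, fell by 1.03 ± 0.12, and Mcm2 fell by 0.69 ± 0.07. Rbbp4, the most abundant one not called, gave a log2 fold change of −0.24 ± 0.11 (adjusted p = 0.137).

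Cell-cycle genes moved in the same direction. Of 34 S-phase genes, 32 were lower and 0 higher (median log2 fold change −0.66), among them Ccna2 (−0.96), Rrm2 (−0.95) and Mcm5 (−0.80), while Dnmt1 did not pass (−0.20, adjusted p = 0.0641). All 21 G2 and M phase genes tested were lower (median −1.12), with Cenpe at −1.34, Ube2c at −1.42 and Bub1b at −1.22. Whether the histone genes fell by more than these genes was not tested.

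The cultures held markers of neurons and of dividing progenitors in every library. The summed level of 12 cortical neuron markers was 12669 and 12690 CPM in DIV3_WT, against 8177 and 7999 CPM in DIV1_WT (6 higher, 3 lower). Among 10 intermediate progenitor markers, 9 were lower and 1 higher in DIV3_WT, their sum being 424 and 404 CPM in DIV3_WT and 786 and 769 CPM in DIV1_WT. Of 12 radial glia markers, 4 were higher and 6 lower, with sums of 2725 and 2672 CPM in DIV3_WT and 2536 and 2474 CPM in DIV1_WT. All 7 tested pericyte and fibroblast markers were higher in DIV3_WT (sums of 54.1 and 54.3 CPM in DIV3_WT, 16.4 and 17.8 CPM in DIV1_WT). Of the astrocyte markers, 5 of 6 were higher and 1 lower, and of the oligodendrocyte lineage markers, 3 of 7 were higher. Of 8 microglia markers tested, 1 was higher and 2 were lower, and none of 3 endothelial markers passed. Among 7 erythroid markers, 6 were lower (sums of 1.32 and 1.62 CPM in DIV3_WT, 27.2 and 14.6 CPM in DIV1_WT), with the globin gene Hbb-bs at 0.0555 and 0.188 CPM in DIV3_WT and 7.10 and 4.59 CPM in DIV1_WT. The part of these cell types in the histone levels was not tested.

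Loss of Ptbp2 left no histone gene past the threshold at DIV1. The total count of the targeted gene does not check the label: Ptbp2 itself had 474 and 514 CPM in DIV1_KO and 465 and 429 CPM in DIV1_WT (log2 fold change 0.14 ± 0.09, adjusted p = 0.413), and a count over the whole gene need not show the loss of part of it. In DIV1_KO against DIV1_WT, 0 of 24 members and 0 of 16847 genes were called (background 0%) by edgeR's quasi-likelihood test. At an unadjusted p under 0.05 there were 3 members and 2475 genes, and DESeq2 called 0 members and 204 genes. The replicates of DIV1_KO differed by a chi-square of 74.1 per gene, against 21.9 in DIV1_WT and 18.1 in DIV3_WT. Without DIV1_KO replicate 2, 5549 genes were called and 2 members were higher, Hist1h1c (0.66, adjusted p = 0.00751) and Hist3h2ba (0.30, adjusted p = 0.0313). In that fit the lone knockout library was assumed to vary like the other groups.

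The members nearest to a call in the knockout were Hist1h1c, Hist1h3a and Hist2h3c2. Hist1h1c had the values given above and a log2 fold change of 0.48 ± 0.16 (adjusted p = 0.333). Hist1h3a gave a log2 fold change of −1.23 ± 0.40 and Hist2h3c2 one of 0.69 ± 0.23, with the same adjusted p of 0.333. Since Hist1h3a passed the count filter through DIV1_WT alone, its lower value in DIV1_KO is not independent of the filter. Hist3h2a (−0.06 ± 0.08), Hist3h2ba (0.11 ± 0.14), Hist2h2be (−0.11 ± 0.16), Hist1h2bc (0.18 ± 0.14) and Hist1h4i (0.04 ± 0.12) did not pass, with adjusted p from 0.480 to 0.884. Of the 54 members with a count, 8 (14.8%) were lower without overlap in DIV1_KO and 6 (11.1%) higher, against 20.9% and 21.2% of all genes with a count. Among the 45 members with a mean under 0.5 CPM, 8 (17.8%) were lower and 3 (6.67%) higher, against 13.3% and 13.2% of genes that low. These backgrounds too were not matched for number of counts. No gene of the histone variant, processing, chaperone, cell-cycle or marker lists was called in the knockout.

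Transcript use could be tested in 2 members. Hist1h2be and Hist2h3c1 had 2 or more transcripts that passed the filter, and neither was called in either comparison (edgeR, adjusted p of 1 for both in each), where 0.602% of 7645 genes were called in DIV3_WT against DIV1_WT and 0.968% in DIV1_KO against DIV1_WT. The share of Hist1h2be on Hist1h2be-201 was 42.8% and 65.2% in DIV3_WT, 58.8% and 19.5% in DIV1_KO, and 49.4% and 26.1% in DIV1_WT, so the groups overlapped. For Hist2h3c1 each library held 100% of its counts on 1 transcript, which differed between the replicates of DIV1_KO and of DIV1_WT. With no unique window, the test cannot decide on its transcript use. Hist1h2bp, Hist1h2bq and Hist1h2br also have several annotated transcripts and held at most 14 counts in any library.

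Neighbouring genes that share an upstream region had unlike levels in some pairs and similar ones in others. On GRCm38, 12 pairs, each of an H2A and an H2B gene, are transcribed away from each other from starts 176 to 306 bases apart. In the pair on chromosome 3, Hist2h2be averaged 7.39 CPM per kilobase and Hist2h2ac 0.0660 CPM per kilobase. In a pair on chromosome 13, Hist1h2bc averaged 8.60 CPM per kilobase and Hist1h2ac 0.0123 CPM per kilobase. In both of these pairs, which hold 1 of the 6 abundant genes each, the H2B gene was the higher in all 6 libraries. In other pairs both genes were low, such as Hist1h2bg with 0.133 and Hist1h2ae with 0.0935 CPM per kilobase, or Hist1h2bp with 0.0965 and Hist1h2an with 0.0626. Both genes were listed at 0 in the pairs Hist1h2ba with Hist1h2aa and Hist1h2br with Hist1h2ap.

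The promoters of the pair of members called in every alternative are printed because they differ in a motif that separated the histone classes. The sequences are RefSeq's on GRCm38.p6, from 250 bases before to 50 bases after the annotated start, with matches on either strand to the CCAAT box, to the TATA box core (TATAA) and to the octamer motif (ATTTGCAT) in capitals.
Hist1h2bk (chr13:22035571-22035870, plus strand): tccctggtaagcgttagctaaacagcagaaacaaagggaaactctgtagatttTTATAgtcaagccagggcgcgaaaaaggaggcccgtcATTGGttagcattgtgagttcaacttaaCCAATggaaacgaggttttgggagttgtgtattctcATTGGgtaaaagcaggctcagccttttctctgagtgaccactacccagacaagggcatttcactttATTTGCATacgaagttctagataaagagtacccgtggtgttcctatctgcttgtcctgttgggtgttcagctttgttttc
Hist1h4i (chr13:22041313-22041612, minus strand): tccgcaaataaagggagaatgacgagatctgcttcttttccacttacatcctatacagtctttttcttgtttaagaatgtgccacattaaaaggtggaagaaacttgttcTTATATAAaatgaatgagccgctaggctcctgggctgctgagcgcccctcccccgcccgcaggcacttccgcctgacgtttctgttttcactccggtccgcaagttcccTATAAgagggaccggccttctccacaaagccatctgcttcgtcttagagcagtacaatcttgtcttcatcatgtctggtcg

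Promoter windows were matched for 60 of the 65 genes. CCAAT, the core of the element bound by NF-Y, was found in 85% of them, against 37.4% of the 32851 promoters in the table. It occurred in all 48 matched genes of classes H1, H2A, H2B and H3 and in 3 of 12 genes of class H4. TATAA, the TATA box core, was found in 81.7% of the histone promoters against 24.9% of all promoters, and in 11 of 12 of class H4. ATTTGCAT, the octamer bound by Oct-1 and known from H2B promoters, was found in 20.0% against 1.74%, in 7 H2A and 5 H2B genes and in none of the other classes. No motif contains another, but matches can overlap at their ends, as TATAA on both strands does in Hist1h4i. Divergent pairs can share a match, and a match is a description of the letters only.

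**Figure D5:**
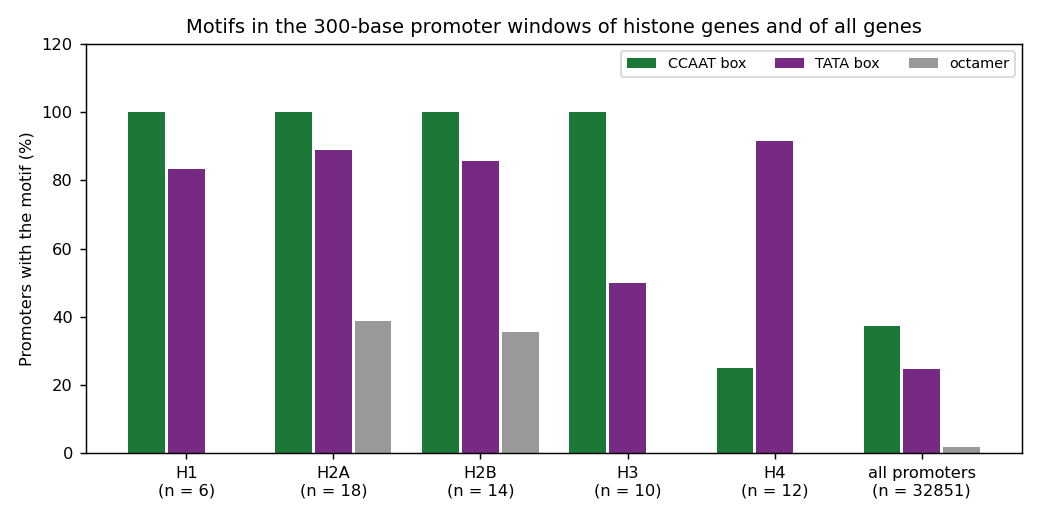
Share of 300-base promoter windows holding the CCAAT box, the TATA box core (TATAA) or the octamer motif (ATTTGCAT) on either strand, for each histone class and for all promoters, with the number of promoters under each group. CCAAT is in every matched H1, H2A, H2B and H3 promoter and in 25% of H4 promoters, against 37.4% of all promoters.

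The genes whose level was most like the family's sum over the 6 libraries were Ccdc177, Pdk2 and Zfp873 (Pearson r of 0.98 each), then Vcp-rs and Map2k5 (0.97 each) on the log2 scale, out of 9851 genes whose average level reached 10 CPM. The libraries share their groups and their depth, and r over 6 points is given as a description. Most of the sum is Hist3h2a and Hist3h2ba.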

How the data were processed

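Total RNA of 6 mouse cortical cultures was made into stranded total RNA libraries, per the labels' protocols. The deposited tables hold RSEM expected counts per gene and per transcript, made by the authors with STAR and RSEM on GRCm38, per the submitters' processing notes (versions not given in the sources used here). RSEM can divide reads shared by near-identical genes, but 58 of the 65 members had whole counts in all 6 libraries. How shared reads were counted here was not tested, so values of close copies are uncertain. Expected counts were rounded, filtered with filterByExpr (minimum count 10, which kept 16847 genes), scaled with TMM and tested in one fit of 3 groups with edgeR 4.0.16 (quasi-likelihood test, R 4.3.3), with Benjamini-Hochberg adjustment over all genes tested and a threshold of 0.05. Transcript use was tested with edgeR's diffSpliceDGE. DESeq2 1.42.0, other scalings, no filter, a length trend removed, a replicate block and leaving out each library were alternatives. The fits were run on simulated data with the same spread set for every gene, so that check need not hold for genes whose replicates vary more. No test was made over the members as a set, and summed levels carry no test.

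Named were the 3 most abundant members per class, the 8 called members with the smallest adjusted p per direction, the 2 most abundant members not called, members at 0 or with several transcripts, and up to 3 called genes and the most abundant uncalled gene per list. The members and gene lists were chosen with earlier results of these data known. Same-numbered replicates did not deviate together in every pair of groups, so the numbers were not taken as pairs. Stem-loops and poly(A) signals were searched in the annotated transcripts, and promoter windows came from RefSeq (GRCm38.p6). Counting intervals and limits cover counting error only.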

Additional observations from a re-analysis of the deposited data

How the results depend on the processing

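In DIV3_WT against DIV1_WT, 6088 genes were called, and 2743 to 8698 when 1 library was left out. With library totals in place of TMM, 2563 genes were called higher and 3996 lower, against 3328 and 2760 with TMM, and the median log2 fold change over all genes tested was −0.13 with library totals, against −0.016 with TMM. Members called higher were 0, but 2 with only the 4 libraries compared, 2 with the length trend removed, 2 with the replicate block and length trend removed (Hist1h2bc and Hist1h1c each time), 1 with members summed from transcripts (Hist2h3c1), and 0 to 2 when 1 library was left out. Members called lower were 11, but 19 with no filter and 2 to 14 when 1 library was left out: 2 without DIV3_WT replicate 1, 4 without DIV3_WT replicate 2, 3 without DIV1_WT replicate 1 and 9 without DIV1_WT replicate 2.

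In DIV1_KO against DIV1_WT, 0 genes were called, but 1061 with no filter, 204 by DESeq2, 25 with the length trend removed, and 0 to 5549 when 1 library was left out (43 without DIV1_KO replicate 1, 5549 without DIV1_KO replicate 2). Members called higher were 0 to 2 when 1 library was left out, and members called lower were 0 in every alternative run.

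Log2 ratios of summed levels at DIV3 moved beyond the replicate spread for all classes (−0.29 with library totals, −0.084 with the length trend removed), H2A (−0.12 with library totals), H2B (−0.23 with the length trend removed), H3 (0.067 from the transcript table) and H4 (−1.17 with the length trend removed). In the knockout the H4 ratio was −0.25 with the length trend removed.

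Log2 fold changes near 0 changed sign. At DIV3, Hist3h2a was 0.0080 with DESeq2 size factors, 0.0079 by DESeq2, 0.00052 with the replicate block, 0.054 with the length trend removed and 0.054 with the block as well, and −0.043 to 0.044 when 1 library was left out. Hist1h4j was 0.0018 with the length trend removed and −0.53 to 0.32 when 1 library was left out. In the knockout, removing the length trend without and with the replicate block gave −0.16 and −0.16 for Hist3h2ba, −0.0096 and −0.0070 for Hist1h2bc, −0.21 and −0.21 for Hist1h4i, and −0.062 and −0.023 for Hist1h4j. When 1 library was left out, the knockout values ran from −0.92 to 0.20 for Hist1h1e, −0.84 to 0.43 for Hist1h1d, −0.12 to 0.0077 for Hist3h2a, −0.10 to 0.30 for Hist3h2ba, −0.36 to 0.10 for Hist2h2be, −8.96 to 9.39 for Hist2h3c1, −0.55 to 0.32 for Hist1h3c, −0.064 to 0.13 for Hist1h4i, −0.19 to 0.66 for Hist1h4j and −0.72 to 0.75 for Hist1h4h. The Hist2h3c1 range comes from the gene table, where DIV1_KO replicate 1 and DIV1_WT replicate 1 were listed at 0, as given above. The cause of the other changes was not tested.

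Same-numbered replicates had correlated deviations of 0.38 between DIV3_WT and DIV1_WT, 0.038 between DIV1_KO and DIV1_WT and −0.094 between DIV3_WT and DIV1_KO. With the replicate block, 4702 genes were called at DIV3, with 11 members lower (Hist1h1e was no longer called and Hist1h4c was) and 0 higher, and 0 genes in the knockout. Low counts limit the low stem-loop genes, and the share of windows unique to a gene limits close copies.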
